A study of Mus musculus with 18 samples.

Results

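The 10 genes Marco, Chil3, Csf1r, Cd68, Mrc1, Adgre1, Itgax, Clec4n, Mmp12 and Ctsk are markers of macrophages, and their levels were described in 18 mouse lung tumours. They were taken as every probe set of the array that is annotated to one of these symbols alone, which gave 13 probe sets for 10 of the 12393 genes on the array. Marco, Chil3, Cd68, Mrc1, Adgre1, Itgax, Mmp12 and Ctsk had 1 probe set each, Clec4n had 2 and Csf1r had 3. All 13 exceeded the median of each of the 18 arrays, so none passed the filter on dim genes through a single group.

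Tumours were microdissected from 6 mice of the C57/B6-129SvJae strain, aged 10 weeks, and their RNA was hybridised to 1-colour arrays of short oligonucleotide probes. Treated mice had received tamoxifen in 2 injections into the peritoneum, and all tumours are described as collected on day 7 after the first injection; the sample descriptions call the treated tumours p53 restored. The descriptions call grade 3 tumours adenocarcinomas and grade 2 tumours adenomas. The sources used here do not give the alleles of the mice, or say whether untreated mice received a vehicle. The 6 treated grade 3 tumours all came from the female mouse 8688, as did 3 of the 4 treated grade 2 tumours; 8639T4, the other one, was from a male. The 4 untreated grade 3 tumours came from the males 8584, 8565 and 8629, and the 4 untreated grade 2 tumours from the males 8700 and 8565. In both grades an effect of treatment cannot be told apart from one of the animal, since each mouse was either treated or untreated. In grade 3 it cannot be told apart from one of sex either. In grade 2 the single male tumour 8639T4 separates treatment from sex. Since tumours of a mouse share their host, p-values over tumours are too small even with the mouse as a random block.

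Macrophages are phagocytes of the myeloid lineage that take up particles, dying cells and surfactant. In the lung, alveolar macrophages live in the airspace and depend on the growth factor CSF2, whereas interstitial macrophages and monocyte-derived cells lie in the tissue and respond to CSF1 through the receptor that Csf1r encodes. Macrophages of both kinds are found in and around lung tumours, where they sense microbial and cellular debris through lectins and scavenger receptors, degrade it in lysosomes, and secrete proteases and chitinase-like proteins.

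Promoter windows from RefSeq (GRCm38.p6, 250 bases before to 50 after an annotated start) were at hand for 7 of the 10 genes, in 8 windows. A set of 3 short motifs were searched on both strands: TGANTCA, bound by AP-1 (Jun and Fos proteins); GAGGAA, a core of sites of PU.1, the myeloid regulator encoded by Spi1; and TCANGTG, the M-box of the MITF family. TGANTCA was in 3 of the 8 windows, against 7.8% of 32851 windows of all genes; GAGGAA was in 5 of 8, against 28.3%; TCANGTG was in 1 of 8, against 14.3%. The 4 windows shown are those of Mmp12, the marker with the widest range among tumours, and of Cd68 and Itgax, which varied alike within groups. They hold all the AP-1 matches and the M-box match. The windows not shown held PU.1 cores alone (Marco, Mrc1 and Ctsk) or no match (Chil3). Capitals mark the matches.
Mmp12 downstream start (chr9:7347124-7347423, plus strand): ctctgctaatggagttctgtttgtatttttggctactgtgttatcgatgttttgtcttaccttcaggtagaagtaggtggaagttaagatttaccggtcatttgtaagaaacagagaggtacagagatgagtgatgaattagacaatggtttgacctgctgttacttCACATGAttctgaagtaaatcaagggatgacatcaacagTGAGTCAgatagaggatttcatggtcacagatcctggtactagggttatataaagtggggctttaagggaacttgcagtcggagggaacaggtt
Mmp12 upstream start (chr9:7344147-7344446, plus strand): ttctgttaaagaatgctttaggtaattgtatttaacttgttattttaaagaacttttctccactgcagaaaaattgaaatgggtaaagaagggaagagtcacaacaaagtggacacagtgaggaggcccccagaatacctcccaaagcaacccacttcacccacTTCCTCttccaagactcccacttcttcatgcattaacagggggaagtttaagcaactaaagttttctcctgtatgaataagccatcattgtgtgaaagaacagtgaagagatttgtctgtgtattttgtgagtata
Cd68 (chr11:69666121-69666420, minus strand): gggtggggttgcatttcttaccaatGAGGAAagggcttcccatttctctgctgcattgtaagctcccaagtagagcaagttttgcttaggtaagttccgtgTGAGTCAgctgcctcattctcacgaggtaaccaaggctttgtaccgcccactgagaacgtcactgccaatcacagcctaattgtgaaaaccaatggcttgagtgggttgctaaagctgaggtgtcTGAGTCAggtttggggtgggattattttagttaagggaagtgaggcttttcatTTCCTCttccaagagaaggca
Itgax (chr7:128129300-128129599, plus strand): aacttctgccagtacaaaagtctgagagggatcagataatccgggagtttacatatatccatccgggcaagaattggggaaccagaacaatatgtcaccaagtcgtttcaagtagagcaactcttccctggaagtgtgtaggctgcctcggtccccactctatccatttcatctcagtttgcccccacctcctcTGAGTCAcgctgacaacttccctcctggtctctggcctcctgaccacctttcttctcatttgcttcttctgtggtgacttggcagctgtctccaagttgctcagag
The first base of the AP-1 match stood at position -44 in the downstream Mmp12 window, at -149 and -24 in the Cd68 window and at -56 in the Itgax window, counting the annotated start as 0. The downstream Mmp12 window also held the M-box match, at -83. The upstream Mmp12 window held a PU.1 core at -86, and the Cd68 window held 2, at -225 and 29. No matches overlapped in these windows. A match of letters is a description of the window, not a bound site.

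Array medians of the log2 signal ran from 6.05 to 6.18; the precision is limited by how many arrays there are. Arrays correlated with each other at 0.974 to 0.997. A sign of RNA quality, the excess of 3' over 5' signal on control transcripts, was 2.62 in 8688T3 and 1.85 in 8639T4, against at most 1.05 in the other tumours. Of genes that mark lung tumour epithelium, Epcam had group means of 10.04 to 10.47 and Sftpc, the surfactant protein C gene of alveolar type 2 cells, 12.74 to 13.15, both above the median of all 18 arrays. Nkx2-1, a lung lineage regulator, was under the median of all 18 arrays. Macrophage markers beside the 10 were present: Siglecf of alveolar macrophages had group means of 9.19 to 9.56, and the complement genes C1qa, C1qb and C1qc of tissue macrophages had group means of 6.89 to 7.18, 12.06 to 12.17 and 7.60 to 8.01.

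Of the 10 markers, 1 passed the test for treatment: Clec4n was lower in the treated grade 3 tumours, all of one mouse, than in the untreated ones. That call was lost in 24 of 34 alternative settings, animal means and 14 of the 18 omissions of single tumours among them. None of the 10 passed the test for treatment in grade 2, for the difference of the treatment effects between grades, or for grade in untreated or treated tumours. Mmp12, the macrophage elastase, had the widest range, and its highest signals were in untreated grade 3 tumours. Chil3, at the 99.9th percentile of mean signal among probe sets, was nearly constant, within 0.44 log2 units over all 18 tumours. In a bulk tumour, fewer macrophages and less RNA per macrophage cannot be told apart.

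The test was limma with the mouse as a random block, adjusted by Benjamini-Hochberg over 7300 genes, with a threshold of 0.05 on the adjusted p. For treatment in grade 3, 1 of the 10 markers was called, where 0.466% of all genes tested were, and the same 1 had an unadjusted p under 0.05, as did 8.8% of all genes; 5 of 10 fitted differences lay above 0, with a median of 0.04, and 56.9% of all genes lay above 0, with a median of 0.042. For treatment in grade 2, 0 of 10 were called, with 0 at an unadjusted p under 0.05, where 0.0685% of all genes were called and 7.0% had such a p; 5 of 10 differences lay above 0, with a median of -0.03, against 53.9% and a median of 0.02 over all genes. For the interaction, the treatment effect in grade 3 minus that in grade 2, limma called 0 of 10 markers, with 1 at an unadjusted p under 0.05, and 0% of all genes, with 9.1% at such a p. For grade 3 minus grade 2 in untreated tumours, limma called 0 of 10, with 2 at an unadjusted p under 0.05, and 0.178% of all genes, with 12.5% at such a p. For the same difference in treated tumours, limma called 0 of 10, with 1 at an unadjusted p under 0.05, and 0% of all genes, with 1.9% at such a p. Counts of list genes at an unadjusted p under 0.05 are to be read against these shares. The comparisons share groups, so they are not independent of each other.

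**Figure D1:**
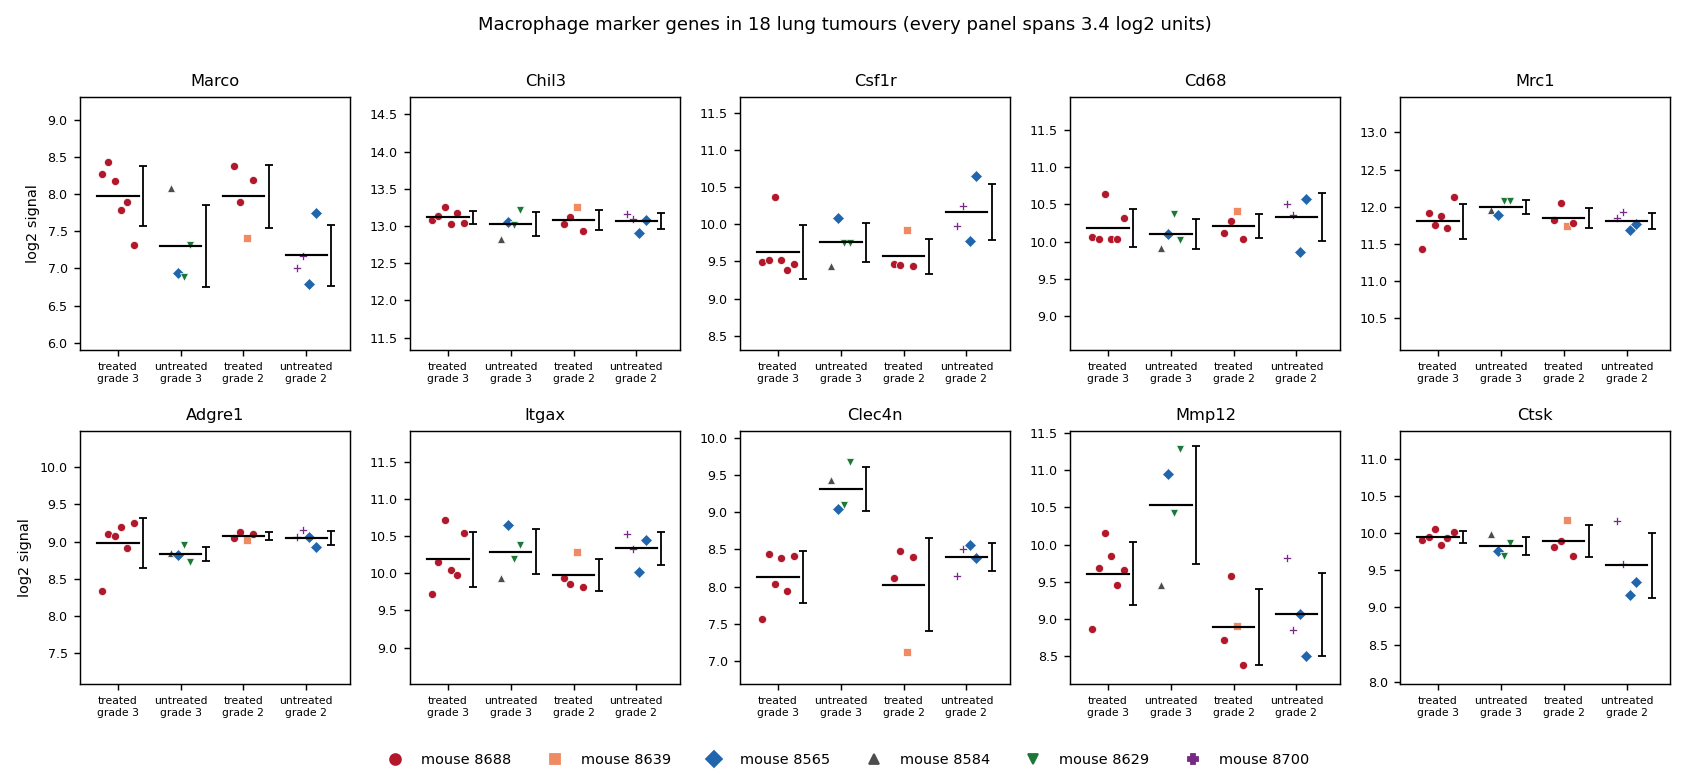
Log2 signal (y axis) of each macrophage marker in the 18 tumours, by group (x axis), with one point per tumour and the mouse as symbol; horizontal lines are group means and vertical bars are 1 SD. Every panel spans the same number of log2 units: Chil3 runs from 12.82 to 13.26, Mmp12 from 8.38 to 11.28, and the untreated grade 3 tumours stand above the treated grade 3 tumours for Clec4n.

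**Figure D2:**
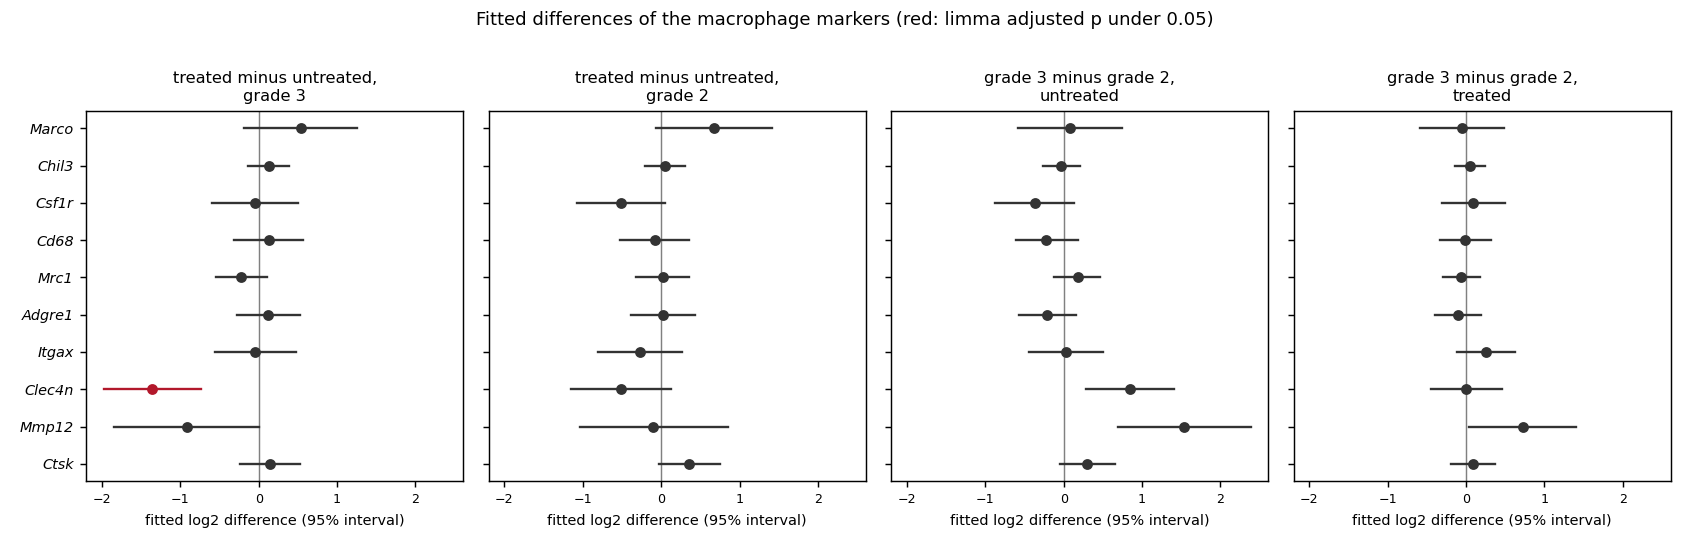
Fitted log2 difference of each marker (x axis) with its 95% interval (bars) in 4 comparisons; red marks an adjusted p under 0.05 in limma. Clec4n for treatment in grade 3 is the one red point, at -1.36, and Mmp12 for grade in untreated tumours lies farthest to the right, at 1.54.

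Clec4n encodes dectin-2, a C-type lectin that binds fungal mannans and signals through the Fc receptor gamma chain. On its brighter probe set, 1425951_a_at, the untreated grade 3 tumours had log2 signals of 9.43 (8584T3), 9.04 (8565T1), 9.09 (8629T10) and 9.67 (8629T12). The 6 treated grade 3 tumours ran from 7.57 to 8.44, with a median of 8.21. Every untreated grade 3 tumour thus lay above every treated one. The treated grade 2 tumours had 8.11 (8688T8), 8.48 (8688T9), 7.12 (8639T4) and 8.40 (8688T10), and the untreated grade 2 tumours had 8.14, 8.50, 8.56 and 8.39, so these groups overlapped. The untreated grade 3 group, with a mean of 9.31 ± 0.30 (SD, n = 4), was the highest; the means of the other groups were 8.13 ± 0.35 (SD, n = 6) for treated grade 3, 8.03 ± 0.62 (SD, n = 4) for treated grade 2 and 8.40 ± 0.19 (SD, n = 4) for untreated grade 2.

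In grade 3, Clec4n fell by 1.36 log2 units with treatment (SE 0.30, 95% interval -1.98 to -0.74), which is 2.57-fold, with a limma adjusted p of 0.049. It was the last of the 34 genes called, in order of p. The plain difference of the group means was -1.17, since the fit weights tumours by the correlation within a mouse. Clec4n was also the 1 marker of 10 whose groups did not overlap in this comparison, where 4.92% of all genes tested did not. Under the alternative settings the difference ran from -2.36 with sex as a covariate to -1.13 without 8688T3 and 8639T4 (adjusted p 0.0914). The fit with sex rests on the 1 treated male tumour, 8639T4. That tumour is of grade 2 and had the lowest Clec4n signal of all, 7.12. It thus cannot separate treatment from sex within grade 3. The call was lost without mouse 8565 (-1.58, adjusted p 0.15), without mouse 8629 (-1.29, adjusted p 0.202), without mouse 8700 (-1.39, adjusted p 0.0746) and over animal means (-1.15, adjusted p 1). Leaving out 1 tumour at a time moved the difference between -1.50 and -1.16.

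In grade 2, the fitted difference of Clec4n was -0.51 (SE 0.30, 95% interval -1.15 to 0.12, limma adjusted p 0.791). Leaving out 1 tumour at a time moved that difference between -0.62 and -0.10. The treated tumour 8639T4, with a 3' excess, had 7.12. The 3 treated tumours of mouse 8688 had a mean of 8.33, against 8.40 in the untreated group. The part of RNA quality in the grade 2 difference was not tested. The interaction was -0.85 (SE 0.34, 95% interval -1.57 to -0.12), with a limma adjusted p of 0.539, so the treatment effects in the grades were not shown to differ. In untreated tumours the fitted difference of Clec4n, grade 3 minus grade 2, was 0.85 (SE 0.27, 95% interval 0.28 to 1.41, limma adjusted p 0.216), which did not pass. Those groups did not overlap, as for 1 of the 10 markers and 6.45% of all genes. Mouse 8565 carried both untreated grades, and with the animal as a fixed block the difference was 0.57 (adjusted p 0.999). In treated tumours the difference was 0.00 (SE 0.22, 95% interval -0.45 to 0.46).

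The second Clec4n probe set, 1419627_s_at, ran the same way. Its untreated grade 3 tumours had 8.89 (8584T3), 8.65 (8565T1), 8.73 (8629T10) and 9.21 (8629T12), above the treated grade 3 tumours at 7.45 to 8.30. When all 10900 probe sets above the filter were fitted, limma called 0.367% of them for treatment in grade 3 and 0.0459% in grade 2. In that fit Clec4n differed by -1.0 on 1419627_s_at (SE 0.24, adjusted p 0.0798) and by -1.36 on 1425951_a_at (SE 0.30, adjusted p 0.0546) in grade 3, and neither passed.

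**Figure D3:**
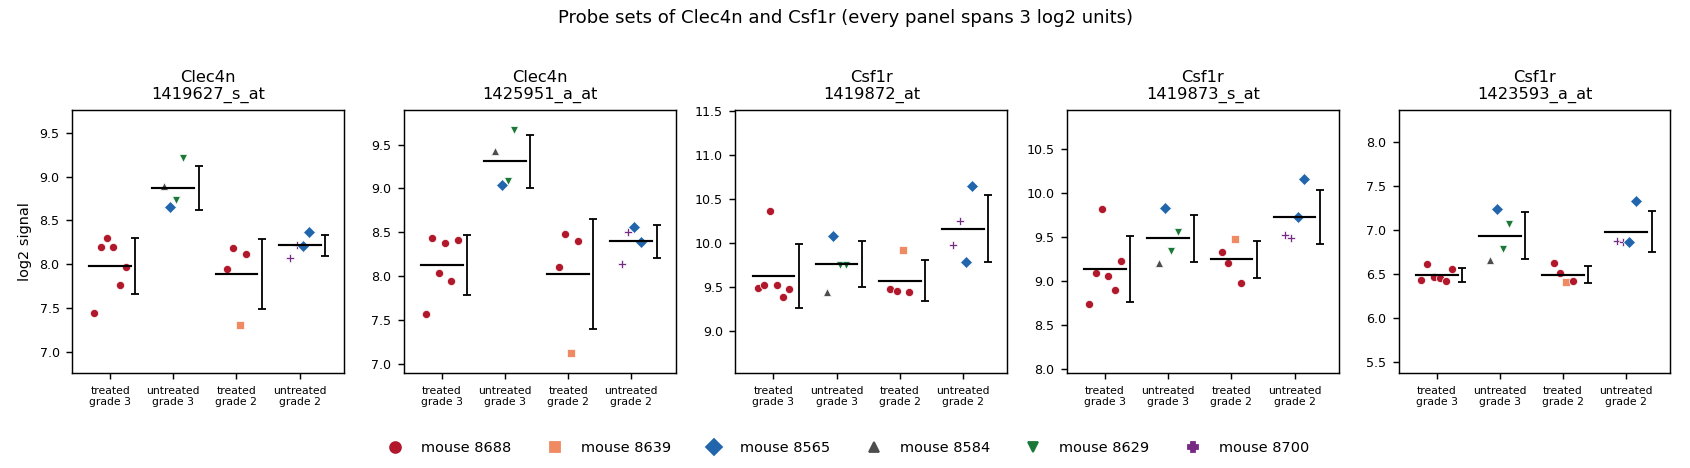
Log2 signal (y axis) of the 2 probe sets of Clec4n and the 3 of Csf1r in the 18 tumours by group (x axis), with the mouse as symbol, group means as lines and 1 SD as bars. Both Clec4n probe sets are highest in untreated grade 3 tumours, and 1423593_a_at of Csf1r separates the treated tumours, at most 6.62, from the untreated ones, at least 6.66.

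A list of leukocyte genes had a lower mean in treated tumours of both grades. The mean log2 signal of 13 pan-leukocyte genes was 9.01 to 9.31 in treated and 9.37 to 9.58 in untreated grade 3 tumours, and 9.04 to 9.32 in treated and 9.33 to 9.59 in untreated grade 2 tumours. The treated and untreated ranges do not overlap in either grade, with a gap of 0.06 in grade 3 and of 0.01 in grade 2. Among the 16 lists, macrophage markers included, the treated range lay below the untreated one for 2 in grade 3 and for 4 in grade 2. Of its 12 genes tested, limma called 0 for treatment in grade 3, with 3 at an unadjusted p under 0.05 and 3 above 0, and a median of -0.32. In grade 2 limma also called 0 of 12, with 3 at an unadjusted p under 0.05 and 1 above 0, and a median of -0.20. Its defining genes had group means of 10.73 in treated and 11.10 in untreated grade 3 tumours for Ptprc (CD45), 10.20 and 10.46 for Itgb2 and 12.58 and 12.49 for Laptm5. In grade 2 the treated and untreated means were 10.93 and 10.95 for Ptprc, 10.19 and 10.43 for Itgb2 and 12.31 and 12.69 for Laptm5. The part of the leukocyte level in the Clec4n result was not tested.

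Markers of other cells that can carry dectin-2 were partly measured. Of 9 neutrophil genes on the array, 6 were under the median of all 18 arrays, the granulocyte colony-stimulating factor receptor gene Csf3r among them, and the list mean was 4.49 to 5.06 in treated and 4.63 to 5.40 in untreated grade 3 tumours. S100a8 and S100a9, the neutrophil alarmins, were measured at group means of 9.17 to 10.12 and 10.99 to 11.63, and limma called neither in any comparison. Of 8 dendritic cell genes, 4 lay below the median on every array, Flt3 and Xcr1 among them, and the list mean was 5.55 to 6.08 in treated and 5.66 to 6.79 in untreated grade 3 tumours. Zbtb46 was measured at group means of 8.88 to 9.47. The part of neutrophils and dendritic cells in the Clec4n result was not tested.

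Other lectins and scavenger receptors gave 0 calls by limma in every comparison, out of 10 tested of 17 listed, with no gene at an unadjusted p under 0.05. Their median difference was -0.10 for treatment in grade 3 and -0.01 in grade 2. Clec4a2, a lectin gene of the same cluster as Clec4n, was above the array median on 3 arrays and was not tested; its group mean was 6.17 ± 0.53 (SD, n = 4) for untreated grade 3 tumours, against 4.39 ± 0.37 (SD, n = 6) for treated grade 3, 4.48 ± 0.19 (SD, n = 4) for treated grade 2 and 4.95 ± 0.54 (SD, n = 4) for untreated grade 2. Clec4d, the neighbouring lectin gene for MCL, had group means of 8.30 ± 1.40 (SD, n = 4) for untreated grade 3 and 7.09 ± 0.75 (SD, n = 6) for treated grade 3, with a spread in the former wider than that gap. In grade 2 its order was the opposite, with 7.86 ± 1.12 (SD, n = 4) for treated and 7.20 ± 0.94 (SD, n = 4) for untreated tumours.

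Marco, a class A scavenger receptor of alveolar macrophages that binds bacteria and particles, had fitted treatment differences above 0. Treated grade 3 tumours ran from 7.32 to 8.43, with a median of 8.04. Untreated grade 3 tumours had 8.08 (8584T3), 6.94 (8565T1), 6.88 (8629T10) and 7.32 (8629T12). Treated grade 2 tumours had 8.38, 7.89, 7.41 (8639T4) and 8.19, and untreated grade 2 tumours had 7.00, 7.17, 6.79 and 7.74. 8584T3, at 8.08, lay above the median of the treated grade 3 tumours. The other untreated tumours reached at most 7.74, and 8 of the 10 treated tumours lay above that. Setting 8584T3 aside in this count was chosen after the values were seen. The fitted difference was 0.54 in grade 3 (SE 0.34, 95% interval -0.19 to 1.26, limma adjusted p 0.665) and 0.67 in grade 2 (SE 0.35, 95% interval -0.07 to 1.41, limma adjusted p 0.76), and neither passed. With sex as a covariate, which rests on the one treated male tumour, the Marco differences were -0.07 in grade 3 and 0.19 in grade 2. Without mouse 8584 the difference in grade 3 was 0.88 (limma adjusted p 0.149).

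Mrc1, the mannose receptor CD206, varied little, from 11.43 in 8688T1 to 12.13 in 8688T11. The untreated grade 3 tumours had 11.96, 11.89, 12.08 and 12.08, and the means of the other groups were 11.80 ± 0.24 (SD, n = 6) for treated grade 3, 11.85 ± 0.14 (SD, n = 4) for treated grade 2 and 11.81 ± 0.10 (SD, n = 4) for untreated grade 2. All these groups overlapped in each comparison. The fitted treatment difference was -0.22 in grade 3 (95% interval -0.55 to 0.10, limma adjusted p 0.696) and 0.02 in grade 2 (95% interval -0.32 to 0.35, limma adjusted p 0.989).

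Csf1r encodes the tyrosine kinase receptor for CSF1 and IL34, on which most tissue macrophages depend. On its brightest probe set, 1419872_at, the treated grade 3 tumours ran from 9.38 to 10.36, with a median of 9.50, and 8688T3 held the highest. Treated grade 2 tumours had 9.47, 9.45, 9.92 (8639T4) and 9.44, untreated grade 3 tumours had 9.44 (8584T3), 10.08 (8565T1), 9.75 and 9.75, and untreated grade 2 tumours had 9.97 and 10.25 (8700) and 9.78 and 10.65 (8565). The 8 tumours of mouse 8688 other than 8688T3 lay within 9.38 to 9.52, and 8688T3 and 8639T4, the 2 tumours with a 3' excess, stood above them; the part of RNA quality in these values was not tested. The fitted treatment difference was -0.05 in grade 3 (SE 0.26, 95% interval -0.60 to 0.50, limma adjusted p 0.964) and -0.51 in grade 2 (SE 0.27, 95% interval -1.07 to 0.05, limma adjusted p 0.761).

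The other Csf1r probe sets had negative fitted treatment differences. On 1423593_a_at all 10 treated tumours lay between 6.41 and 6.62 and all 8 untreated tumours between 6.66 and 7.33, so treated and untreated tumours did not overlap, by a gap smaller than the spread within the untreated groups. Of all 10900 probe sets above the filter, 0.394% likewise did not overlap between treated and untreated tumours of both grades. In the fit of all probe sets 1423593_a_at differed by -0.46 in grade 3 (SE 0.15, 95% interval -0.78 to -0.14, limma adjusted p 0.28) and by -0.47 in grade 2 (SE 0.16, 95% interval -0.79 to -0.14, limma adjusted p 0.473), and neither passed. On 1419873_s_at the differences were -0.28 (limma adjusted p 0.785) and -0.41 (limma adjusted p 0.799). The 3 probe sets thus had the same sign in both grades and unequal sizes, although the sign of 1419872_at in grade 3 turned under 4 of 34 alternative settings. For treatment in grade 2, 1419873_s_at did not overlap either, though the groups nearly touched, with treated tumours at 8.98 to 9.48 and untreated ones at 9.49 to 10.16. The share of all probe sets that did not overlap in grade 2 was not computed. By representative probe sets, 0 of the 10 markers had groups that did not overlap for treatment in grade 2, where 8.08% of all genes did not.

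Genes of CSF1 and CSF2 signalling gave 0 calls by limma among 17 tested in every comparison, with 3 at an unadjusted p under 0.05 for treatment in grade 3 and 1 in grade 2. The medians were -0.05 and -0.16. The group means of the ligand genes were 5.63 to 5.96 for Csf1, 5.85 to 6.43 for Il34 and 7.40 to 7.65 for Csf2. For grade in untreated tumours, 2 of the 17 had an unadjusted p under 0.05 in limma, where 12.5% of all genes did. Il34 was among them, with a fitted difference of 0.36 (SE 0.17).

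Adgre1 encodes F4/80, the adhesion receptor by which mouse macrophages are commonly identified. It ran from 8.33 in 8688T1 to 9.25 in 8688T11, and the other 5 treated grade 3 tumours lay between 8.91 and 9.25. The untreated grade 3 tumours had 8.84, 8.82, 8.96 and 8.73, the treated grade 2 tumours 9.05, 9.13, 9.02 and 9.10, and the untreated grade 2 tumours 9.06, 9.15, 9.06 and 8.93. The fitted treatment difference was 0.12 in grade 3 (95% interval -0.28 to 0.53, limma adjusted p 0.867) and 0.02 in grade 2 (95% interval -0.39 to 0.43, limma adjusted p 0.988).

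Itgax encodes CD11c, an integrin chain of alveolar macrophages and dendritic cells. It ran from 9.72 in 8688T1 to 10.71 in 8688T3, and all groups overlapped. Group means were 10.19 ± 0.37 (SD, n = 6) for treated grade 3, 10.29 ± 0.30 (SD, n = 4) for untreated grade 3, 9.97 ± 0.22 (SD, n = 4) for treated grade 2 and 10.33 ± 0.22 (SD, n = 4) for untreated grade 2. The fitted treatment difference was -0.05 in grade 3 (95% interval -0.56 to 0.47) and -0.27 in grade 2 (95% interval -0.80 to 0.26), with limma adjusted p of 0.963 and 0.853.

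Cd68 encodes a lysosomal glycoprotein of phagocytes. It ran from 9.86 in 8565T3 to 10.64 in 8688T3. Without 8688T3, the tumours of mouse 8688 lay between 10.03 and 10.32, and 8639T4 had 10.41. The untreated grade 2 tumours spanned 9.86 to 10.58, which covers nearly the whole range of the other groups. The fitted treatment difference was 0.13 in grade 3 (95% interval -0.31 to 0.57) and -0.08 in grade 2 (95% interval -0.53 to 0.36), with limma adjusted p of 0.87 and 0.945.

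Ctsk encodes cathepsin K, a collagen-degrading protease of osteoclasts and some macrophages. The treated grade 3 tumours were narrow, at 9.84 to 10.06, whereas the untreated grade 2 tumours had 10.16 and 9.59 (8700) and 9.17 and 9.34 (8565). The fitted difference was 0.36 for treatment in grade 2 (SE 0.19, 95% interval -0.03 to 0.75, limma adjusted p 0.75) and 0.15 in grade 3 (SE 0.18, 95% interval -0.24 to 0.53, limma adjusted p 0.832). Other cathepsin and lysosome genes gave 0 calls by limma in every comparison among 18 tested, with a median of 0.03 for treatment in grade 3 and -0.10 in grade 2 and at most 3 genes at an unadjusted p under 0.05. Ctsb, Ctsd and Ctss, lysosomal cathepsin genes, had group means of 11.46 to 11.87, 11.15 to 11.45 and 11.90 to 11.99.

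Mmp12 encodes the macrophage elastase, a secreted metalloprotease. The untreated grade 3 tumours had 9.46 (8584T3), 10.95 (8565T1), 10.42 (8629T10) and 11.28 (8629T12), and the untreated grade 2 tumours had 9.82 (8700T1), 8.85 (8700T3), 9.07 (8565T3) and 8.50 (8565T4). Of the untreated grade 3 tumours, 8584T3 alone reached into the grade 2 range. The treated grade 3 tumours ran from 8.87 to 10.15, with a median of 9.67, and the treated grade 2 tumours had 8.71, 9.58, 8.90 and 8.38. Group means were 10.53 ± 0.80 (SD, n = 4) for untreated grade 3, 9.06 ± 0.56 (SD, n = 4) for untreated grade 2, 9.61 ± 0.43 (SD, n = 6) for treated grade 3 and 8.89 ± 0.50 (SD, n = 4) for treated grade 2.

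Between grades, Mmp12 differed by 1.54 in untreated tumours (SE 0.40, 95% interval 0.70 to 2.39), a 2.92-fold ratio, with a limma adjusted p of 0.137, which did not pass. Without mouse 8584 it was 1.85 and passed (adjusted p 0.0282), and without mouse 8565 it was 0.94 (adjusted p 0.708). With the animal as a fixed block, which compares grades within mouse 8565, it was 2.17 (adjusted p 0.859). In treated tumours the grade difference of Mmp12 was 0.72 (SE 0.32, 95% interval 0.04 to 1.40, limma adjusted p 0.997), and it was 0.72 within mouse 8688 as well. No marker had groups apart in that comparison, where 0.781% of all genes did. With treatment, Mmp12 differed by -0.92 in grade 3 (SE 0.44, 95% interval -1.85 to 0.01, limma adjusted p 0.573) and by -0.10 in grade 2 (SE 0.45, 95% interval -1.04 to 0.85, limma adjusted p 0.979). The interaction was -0.82 (SE 0.52, 95% interval -1.91 to 0.26, limma adjusted p 0.598).

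Other matrix proteases and their inhibitors gave 0 calls by limma in every comparison among 10 tested of 18 listed. For grade in untreated tumours 5 of the 10 had an unadjusted p under 0.05, where 12.5% of all genes did, and these went both ways, with 2 above 0 and 3 below; the median over the 10 was 0.28. For treatment in grade 3 there were 3, all below 0, where 8.8% of all genes had such a p, and the median was -0.53. Mmp2, a gelatinase of stromal cells, had group means of 7.90 to 8.73, and Mmp3 had 5.54 to 6.81. Mmp7, an epithelial metalloprotease, was below the median of every array.

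Chil3 encodes a chitinase-like protein, Ym1, that mouse alveolar macrophages secrete. Its group means were 13.12 ± 0.09 (SD, n = 6) for treated grade 3, 13.03 ± 0.16 (SD, n = 4) for untreated grade 3, 13.09 ± 0.13 (SD, n = 4) for treated grade 2 and 13.06 ± 0.11 (SD, n = 4) for untreated grade 2. Its within-group SD of 0.12 stood at the 4.9th percentile of all genes tested, whereas those of Mmp12, Marco and Clec4n stood at the 95.1st, 90.3rd and 87th. The mean signal of Chil3 stood at the 99.9th percentile of all probe sets, and the part of signal level in its narrow spread was not tested. The fitted treatment difference was 0.13 in grade 3 (95% interval -0.13 to 0.39, limma adjusted p 0.774) and 0.05 in grade 2 (95% interval -0.21 to 0.31, limma adjusted p 0.943).

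Genes of alternative activation and the chitinase family gave 0 calls by limma in every comparison among 7 tested of 14 listed, with 1 at an unadjusted p under 0.05 for treatment in grade 3 and 2 for grade in untreated tumours. Over the 7 tested, the median difference was -0.35 for treatment in grade 3 and 0.26 for grade in untreated tumours. Mean signal over 13 genes, those too dim to test included, was 6.93 to 7.75 in untreated grade 3 tumours, above the other groups, which reached at most 6.80. Arg1, the arginase of alternatively activated macrophages, had a group mean of 7.04 ± 1.74 (SD, n = 4) there, against 4.08 to 5.13 elsewhere; it was above the array median on 3 arrays and was not tested. Retnla, the resistin-like molecule alpha, had group means of 12.14 ± 0.59 (SD, n = 4) for untreated grade 3, 11.30 ± 0.99 (SD, n = 4) for untreated grade 2, 11.01 ± 0.80 (SD, n = 6) for treated grade 3 and 10.95 ± 0.62 (SD, n = 4) for treated grade 2. Chil1 had group means of 12.33 to 12.45.

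Of the inflammatory genes, 7 of 15 were under the median of all 18 arrays, Nos2 and Tnf among them, and limma called 0 of the 6 tested in any comparison, with 2 at an unadjusted p under 0.05 for treatment in grade 3. The grades went opposite ways. For treatment in grade 3, 1 of the 6 lay above 0, with a median of -1.01. For treatment in grade 2, 4 of the 6 lay above 0, with a median of 0.70. Il1b, the cytokine interleukin 1 beta, had group means of 7.89 ± 0.87 (SD, n = 4) for untreated grade 3, 7.48 ± 0.28 (SD, n = 4) for untreated grade 2, 6.09 ± 0.45 (SD, n = 6) for treated grade 3 and 6.69 ± 1.24 (SD, n = 4) for treated grade 2.

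Other markers of macrophage subsets gave few low p-values. Of 15 alveolar macrophage genes tested, limma called 0 in every comparison, with 1 at an unadjusted p under 0.05 for treatment in grade 3 and 2 in grade 2, and medians of 0.00 and -0.17. The mean over 16 alveolar macrophage genes was 9.43 to 9.75 in treated and 9.80 to 10.09 in untreated grade 2 tumours. It is among the 4 of 16 lists whose treated range lay below the untreated one in grade 2. Its genes did not move together. Fabp1 and Chia1 differed by -2.01 and -1.34 in grade 2, whereas Fabp4, Fabp5 and Pparg differed by 0.23, 0.21 and 0.23. These genes were named after their values were seen. Of the 15 tested, 4 lay above 0 in grade 2, against 53.9% of all genes. In grade 3 the ranges overlapped, at 9.38 to 9.80 in treated and 9.23 to 10.00 in untreated tumours. Of 15 monocyte and interstitial macrophage genes tested, limma called 0, with 1 at an unadjusted p under 0.05 in grade 3 and 0 in grade 2, and medians of 0.10 and -0.27. In grade 2, 1 of these 15 lay above 0, against 53.9% of all genes, and in grade 3 there were 9 of 15, against 56.9%. The low count in grade 2 was not particular to this list. Above 0 there were 1 of 8 endothelial, 1 of 7 T, NK and B cell and 1 of 12 pan-leukocyte genes. By contrast, 4 of 6 inflammatory and 2 of 2 neutrophil genes lay above 0.

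**Figure D4:**
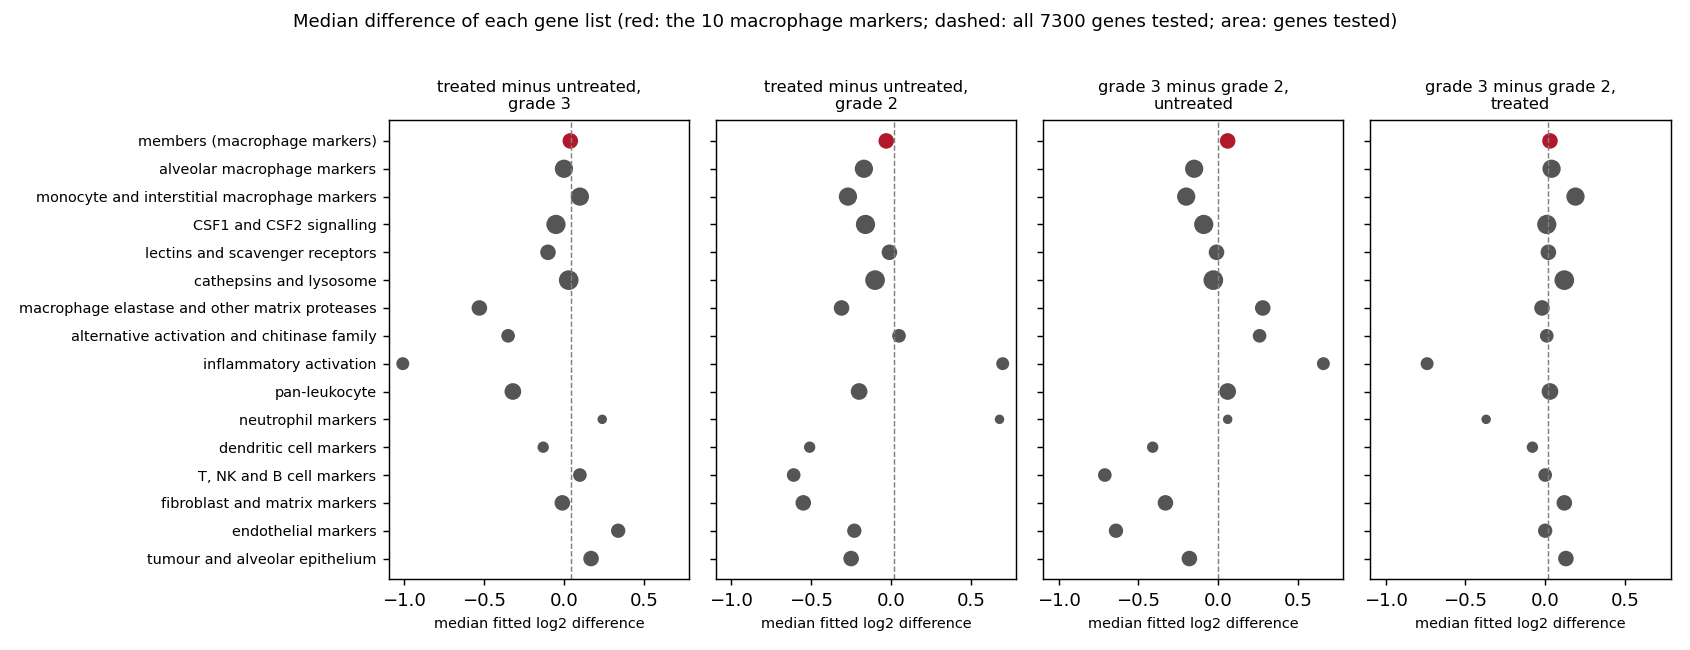
Median fitted log2 difference (x axis) of the 10 macrophage markers (red) and of each other gene list (grey) in 4 comparisons; point area follows the number of genes tested and the dashed line is the median over all 7300 genes. The macrophage markers lie near that line, between -0.03 and 0.06, while the list of inflammatory genes, with 6 genes tested, lies farthest to the left for treatment in grade 3, at -1.01. For treatment in grade 2 that list lies at 0.70.

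Markers of other cells are given for the comparison of untreated grades, where the fitted differences of Mmp12 and Clec4n were 1.54 and 0.85. Endothelial genes had a median difference of -0.64 between untreated grades, with 0 of 8 above 0; limma called 0 of 8, with 4 at an unadjusted p under 0.05. Their defining genes Pecam1, Cdh5 and Kdr had means of 7.06, 6.46 and 6.59 in untreated grade 3 and 7.76, 7.16 and 7.32 in untreated grade 2 tumours. Of 10 fibroblast and matrix genes, limma called 1: Fbln1, which encodes the matrix protein fibulin 1, fell by 1.95 (SE 0.35, limma adjusted p 0.0248). Col1a1, Col1a2 and Pdgfra had group means of 10.69 to 11.26, 10.12 to 10.84 and 10.63 to 11.15. Genes of T, NK and B cells had a median of -0.71, with 0 of 7 above 0 and 0 called by limma (1 at an unadjusted p under 0.05); Cd3e had group means of 6.55 to 6.97 and Cd3g 5.23 to 6.00, and Cd79a of B cells was under the median of all 18 arrays. Epithelial genes had a median of -0.18 between untreated grades and 0 calls by limma among 10, with 0 at an unadjusted p under 0.05. The part of these cells in the Mmp12 and Clec4n values was not tested.

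The markers did not vary as one block. After each group's mean was subtracted, Pearson's r over the 18 tumours was computed for all 45 pairs of markers; the median was 0.21, and 31 pairs lay above 0. Mrc1 and Adgre1 were most alike at 0.80, followed by Csf1r with Cd68 at 0.75 and Itgax with Cd68 and with Csf1r, each at 0.73. Without 8688T3 and 8639T4 the Mrc1 and Adgre1 pair had 0.82, whereas Csf1r with Cd68 had 0.57, Cd68 with Itgax 0.58 and Csf1r with Itgax 0.53. Marco and Mmp12 were the most opposed at -0.50, and at -0.61 without those tumours. These values are descriptions of tumours that share mice and arrays. Mrc1 and Adgre1 both had their lowest signal in 8688T1, at 11.43 and 8.33, and their r without that tumour was not computed.

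**Figure D5:**
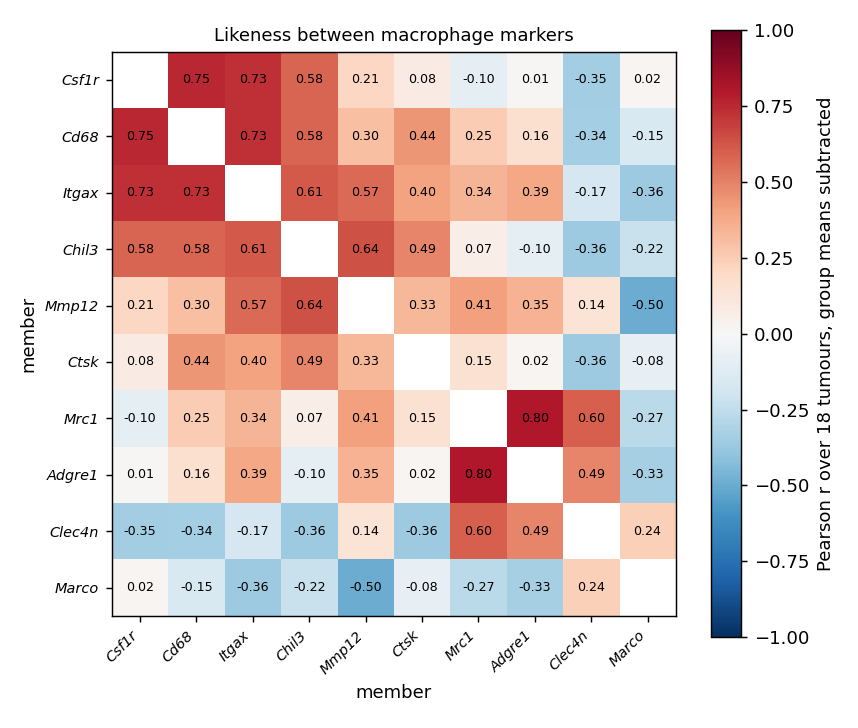
Pearson's r between the macrophage markers (both axes) over 18 tumours after subtracting group means; colour and number give r. Mrc1 with Adgre1, at 0.80, and Csf1r, Cd68 and Itgax, at 0.73 to 0.75, form the reddest squares, and Marco with Mmp12, at -0.50, the bluest.

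Outside the 10 markers, the tested genes most like each marker by the same measure were the following. For Clec4n they were Ms4a6d, a myeloid membrane protein gene, at 0.85, Ube2e3 at 0.79 and Fbxo22 at 0.78. For Marco they were Ppp2r5c at 0.78, Exoc7 at 0.77 and Mrps26 at 0.75. For Mrc1 they were Wdr61 at 0.78 and P2ry14 and Irx2 at 0.77, and for Adgre1 Wdr61 at 0.86, Pm20d1 at 0.85 and Irx2 at 0.82, so that these markers shared 2 of their 3. For Csf1r they were Ywhah at 0.93, Yy1 at 0.92 and Hmgcs1 at 0.91. For Itgax they were Glb1, the lysosomal beta-galactosidase, at 0.93, Nrros at 0.87 and Ibtk at 0.86. For Cd68 they were B230219D22Rik, Rpl4 and Arfgef1, each at 0.90, and for Ctsk Rab24 at 0.94, Mgat4b at 0.87 and 0610040J01Rik at 0.85. For Mmp12 they were Gla, the lysosomal alpha-galactosidase, at 0.89 and Psat1 and Gmppb at 0.85. For Chil3 they were Mto1 at 0.91 and Serp1 and Spcs1, genes of the secretory pathway, at 0.90. Without 8688T3 and 8639T4 these values ran from 0.73 to 0.94.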

How the data were processed

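Total RNA (100 ng per tumour, Trizol) was amplified and hybridised, per the labels' protocols. The deposited log2 signals per probe set were made by the authors: the submitters' processing notes name GCRMA 2.20.0 and R 2.11.0. That method subtracts a background modelled on probe sequence and gives all arrays 1 distribution, so differences in total RNA are lost. The sources used here name no scan date or batch.

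Of 22690 probe sets, 20380 had 1 gene symbol, 691 several, 1555 none and 64 were controls; gene IDs linked 20351 to the reference table, with 0 changes of symbol. A gene's brightest probe set on average stood for it, and the 7300 genes that exceeded the array median on 4 or more arrays were tested. The restored gene itself is not reported here. Group means (4) were fitted over the 18 tumours in limma 3.58.1 (R 4.3.3), the mouse being a random block, and p-values were adjusted by Benjamini-Hochberg. Groups came from the labels. The members and lists were chosen with earlier results of these data known. Named are all members, each list's first 3 genes, up to 3 called per list and comparison, and the 3 most like each member. Steps were tested on simulated data. Alternatives changed the animal term, sex, samples, normalisation, filter, probe set rule and spread model, and left out tumours; leaving out 8688T3 with 8639T4, or an untreated mouse, was chosen after seeing the data.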

Additional observations from a re-analysis of the deposited data

Results flagged for a closer look

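Of 52 sets of 4 or 6 tumours (each probe set of the macrophage markers in each group), 4 held a tumour whose gap to its neighbour was large for the range of its group by Dixon's ratio; chance gives about 1 in 20. Csf1r on 1419872_at was 10.36 in 8688T3, against 9.38 to 9.52 in the other treated grade 3 tumours. On the same Csf1r probe set 8639T4 had 9.92, against 9.44 to 9.47 in the other treated grade 2 tumours. Csf1r on 1423593_a_at was 7.33 in 8565T4, against 6.86 to 6.88 in the other untreated grade 2 tumours. Adgre1 was 8.33 in 8688T1, against 8.91 to 9.25 in the other treated grade 3 tumours.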

How the results depend on the processing

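The count of macrophage markers called for treatment in grade 3, 1 in the fit described, became 0 with animal means, with only the groups compared, with array medians subtracted, with a further quantile normalisation, with probe sets averaged per gene, with all probe sets, without 8688T3 and 8639T4, and without mouse 8565, 8629 or 8700, and ran from 0 to 1 when single tumours were left out. The count for grade in untreated tumours, 0, became 1 (Mmp12) without mouse 8584 and ran from 0 to 1 when single tumours were left out. Of 50 fitted differences (10 markers in 5 comparisons), 0 called ones changed sign under 36 settings, and 26 uncalled ones did under at least 1. With the mouse fixed, treatment could not be fitted: each mouse was either treated or untreated. No paired analysis was possible because the replicate numbers are only names given in accession order and the tumour numbers of different mice do not pair. Treatment rests on 2 treated mice.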

Other observations

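A probe set annotated to both Chil4 and Chil3, and so outside the 13, ran from 12.67 (8700T3) to 13.37 (8629T12). Its values in untreated grade 3 tumours were 13.14, 13.33, 13.11 and 13.37, and in treated grade 3 tumours 12.86 to 13.25.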
